A study of Arabidopsis thaliana with 6 samples.

Results

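Wild-type callus was described here from the 3 Col-0 libraries among the 6 bulk RNA-sequencing libraries of the series. Col-0 is the standard laboratory accession of Arabidopsis thaliana, and these plants carried no labelled mutation or transgene. Hypocotyls, the stems of seedlings below the seed leaves, were cut from seedlings 1 week old and kept for 7 days on callus-inducing medium. The series calls the 3 replicates biological, without saying whether plants were pooled, and the other 3 libraries (rap2.12-2) were not compared. Each value is in TPM, transcripts per 1000000, which is scaled by transcript length, so levels of different genes in a library can be set side by side. A locus was called expressed where all 3 libraries had at least 1 TPM and absent where all 3 had under 0.1 TPM. Of 31305 listed loci, 31217 were nuclear and were ranked by their mean over the 3 libraries, and the 88 chloroplast and mitochondrial loci were left out.

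Callus is a mass of dividing, largely unorganised cells that forms on cut tissue when auxin and cytokinin are supplied. In Arabidopsis it is known to arise from pericycle-like cells along the vasculature and to use regulators of lateral root primordia. Cells of such callus can later form shoots or roots. The RNA came from whole callus, so a low level of a transcript can mean fewer cells of a type or less RNA per cell, and these cannot be told apart.

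The libraries differed in ways that touch every level below. The listed values of replicate 1 summed to 845341 TPM, 15.5% short of 1000000, against 990035 and 989861 TPM in replicates 2 and 3. Its organelle loci summed to 12005 TPM, against 257 and 282 TPM. Its annotated nuclear ribosomal RNA loci summed to 31123 TPM, against 12820 and 15755 TPM. Most genes are therefore listed lowest in replicate 1, and values called rescaled were multiplied so that the nuclear loci of each library sum to 1000000, which raised replicate 1 by a factor of 1.2 and left the others almost as listed. The table holds no counts, so the depth behind a value is unknown and its precision was judged from the 3 libraries. Pearson correlations across the nuclear loci on log2(TPM + 1) were 0.985 between replicates 1 and 2, 0.992 between 1 and 3 and 0.985 between 2 and 3. Loci are not independent replicates, so these are descriptions. Replicate 2 departed from the other libraries in a set of stress genes, described near the end.

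Of the nuclear loci, 17679 were expressed, which is 56.6% of all, and 9155 were absent, which is 29.3% of all. The remaining 4383 lay between the limits. Among protein-coding loci 17356 of 27324 were expressed (63.5%), against 211 of 3480 long non-coding RNA loci (6.06%). All 3 libraries were at 0 for 8920 loci. The limits cut through a smooth range: 138 loci had a lowest library of 1.0 to under 1.1 TPM, and 130 had one of 0.9 to under 1.0 TPM. Just inside were CYP71A12 (AT2G30750), a camalexin enzyme at 1.01, 3.23 and 1.32 TPM, and just outside ALD1 (AT2G13810), a pipecolic acid enzyme at 2.11, 3.05 and 0.96 TPM. By chromosome, the expressed share of protein-coding loci ran from 60.3% on chromosome 2 to 65.3% on chromosome 5.

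RNA was spread over many genes. The 10 highest loci held 4.53 ± 1.25% of nuclear TPM (SD, n = 3), the 100 highest 16 ± 1.28% and the 1000 highest 46.3 ± 1.27%. In replicate 1 the 10 highest held 5.94%, against 3.57% and 4.09% in the others. It took 1242 loci to reach 50% of nuclear TPM and 8699 to reach 90%. The median over all nuclear loci was 4.55 TPM, and over expressed loci 21.4 TPM. Means of at least 1000 TPM were found at 71 loci, of 100 to under 1000 TPM at 1724, and of 10 to under 100 TPM at 11178.

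**Figure D1:**
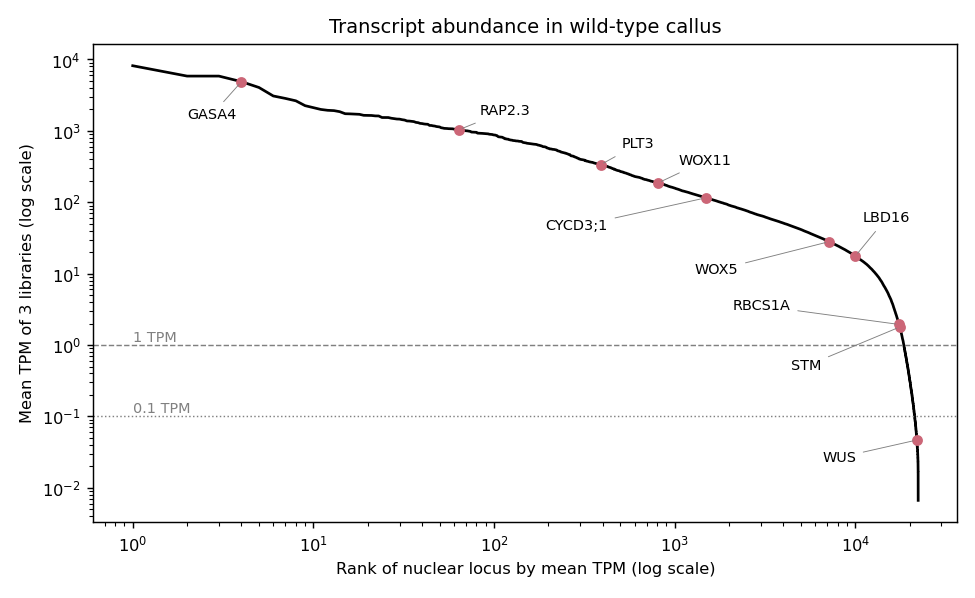
Mean TPM over the 3 wild-type libraries (log scale) against rank among nuclear loci (log scale), with named genes as points. The curve falls gently at first and steeply below 10 TPM. RAP2.3 and PLT3 lie on the upper part, at ranks 64 and 389, and WUS lies under 0.1 TPM.

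The first 3 ranks were ribosomal RNA loci, whose level in a library depends on how RNA was selected. AT3G41768, annotated as 18S ribosomal RNA, had 17518, 3440.0 and 3585 TPM, so its place at rank 1 rests on replicate 1. AT2G01020 and AT3G41979 had identical values, 6797, 4687 and 6083 TPM, so reads shared between these copies cannot be assigned to either. In all, 83 loci in 40 groups shared identical values above 0 in the 3 libraries.

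The highest protein-coding transcript was GASA4 (AT5G15230), a small cysteine-rich peptide of the gibberellin-regulated GASA family. It had 3834, 5019 and 5823 TPM, a mean of 4892 ± 1001 TPM (n = 3), at rank 4, and at rank 1 without replicate 1. TCTP (AT3G16640), a growth regulator found across eukaryotes, followed with 3623, 3913 and 4621 TPM. The order of these genes was the same in all 3 libraries, and the lowest GASA4 library lay below the highest TCTP library. GRP7 (AT2G21660), a circadian RNA-binding protein, had 2614, 3325 and 3310.2 TPM. The elongation factor gene AT5G60390, which delivers aminoacyl-tRNA to the ribosome, had 2447, 2991 and 3108 TPM. The chaperone gene HSC70-1 (AT5G02500) had 2191, 2767 and 2953 TPM, and HOG1 (AT4G13940), which removes S-adenosylhomocysteine after methylation, had 1880.4, 2361 and 2524 TPM. All of these were lowest in replicate 1.

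Genes of translation filled the upper ranks. Loci annotated as ribosomal proteins, those of organelle ribosomes included, made up 7 of the 30 highest protein-coding loci and 54 of the 100 highest, against 386 of 27324 in all (1.41%). They held 13.6 ± 0.550% of nuclear TPM (n = 3), with 13.2%, 13.3% and 14.2% in replicates 1 to 3. Of these loci 357 were expressed, 14 were absent, and the median was 120.2 TPM. The highest was AT4G27090, for ribosomal protein L14, with 1697, 2032 and 2262 TPM. AT1G02780, for a protein of the L19e family, had 1679, 1961 and 2127 TPM, and AT5G20290, of the S8e family, had 1632, 1895 and 2045 TPM. Many ribosomal proteins come from near-identical gene copies, among which estimated levels can be split.

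Other transcripts among the first 30 served metabolism, detoxification and the wall. GAPC2 (AT1G13440), a glycolytic dehydrogenase, had 1808, 2149 and 2380.0 TPM. The metallothionein gene MT2B (AT5G02380), for a metal-binding protein, had 1540.3, 1649.9 and 2029 TPM. GSTU19 (AT1G78380), a glutathione transferase, had 1340.0, 1569 and 1488 TPM. The wall protein gene AGP31 (AT1G28290) had 1489.8, 1505 and 1859 TPM, and FAD2 (AT3G12120), the oleate desaturase of the endoplasmic reticulum, 1274, 1583 and 1757 TPM. UBC10 (AT5G53300), a ubiquitin-conjugating enzyme, had 1776, 2007 and 2043 TPM. UBC10 lay above MT2B in every library, although their ranges overlapped. AGP31 lay above GSTU19 in replicates 1 and 3 and below it in replicate 2, so the order of these is not beyond their spread.

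Non-coding transcripts also reached these ranks. AT1G67105, annotated as a non-coding RNA, had 1594, 1809.8 and 1741 TPM at rank 17. AT3G06355, a long non-coding RNA locus, had 1943, 1262 and 1409.8 TPM at rank 25, but 164 of its bases overlap the ribosomal RNA locus AT3G41979 on the same strand. AT1G25098 followed with 581, 544 and 658 TPM. Whether counting used strand is not given in the sources used here, so reads of overlapping loci on opposite strands may not be separable. Of 426 loci in the gene lists below, 89 overlap another listed locus, and in 27 that other locus is at least as high.

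Promoters were read from the TAIR10.1 reference as the 250 bases before the annotated gene start, for 27323 protein-coding loci. Short motifs were searched on both strands. TGGGCC, the core of the site II element, was in 60.2% of 181 ribosomal protein promoters among the 1000 highest loci, against 22.3% of the other 819 and 13.7% of all. AAACCCTA, the telo box, was in 21.0%, 4.52% and 4.49% of these. Both elements are known from promoters of plant translation genes. TATAAA was in 52.5%, 47.5% and 47.4%. In absent loci TGGGCC was in 5.76% and AAACCCTA in 7.11%. These shares describe letters in a window, not sites that a factor binds.

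The promoters of the highest protein-coding transcript and of a ribosomal protein gene chosen for its motifs are shown. Each is given as the strand of its gene with motif matches in capitals. GASA4, at chr5:4944566-4944815 on the plus strand, holds a TATAAA match on the opposite strand and none of the translation motifs. AT1G52300, a zinc-binding ribosomal protein gene with 1185, 1306 and 1453 TPM, lies on the minus strand with its window at chr1:19476235-19476484. Its window holds 2 abutting TGGGCC matches in opposite directions, 74 to 85 bases before the gene start. An AAACCCTA match follows at 19 to 26 bases. Of 3 TATAAA matches, 2 overlap at 7 to 16 bases, and 1 lies at 220 to 225 bases. AT1G52300 was the highest ribosomal protein locus with both translation motifs and no other locus in its window. Its motifs were fixed by this choice, so the pair does not compare GASA4 with ribosomal protein genes at large.
GASA4: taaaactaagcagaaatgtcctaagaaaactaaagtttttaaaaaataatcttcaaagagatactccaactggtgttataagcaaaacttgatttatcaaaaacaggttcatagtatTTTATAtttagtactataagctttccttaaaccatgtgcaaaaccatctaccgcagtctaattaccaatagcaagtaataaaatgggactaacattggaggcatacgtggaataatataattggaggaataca
AT1G52300: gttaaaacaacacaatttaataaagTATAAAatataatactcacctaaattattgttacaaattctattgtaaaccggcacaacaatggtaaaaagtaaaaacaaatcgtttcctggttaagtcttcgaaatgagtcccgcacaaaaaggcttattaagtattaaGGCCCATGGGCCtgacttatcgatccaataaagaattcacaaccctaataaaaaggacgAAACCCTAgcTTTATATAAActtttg

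Regulators of root primordia and callus were widely expressed, 21 of 25 listed (84%), with a median of 18.4 TPM. Over all protein-coding loci 63.5% were expressed, and each list count below is to be read beside that share. The PLETHORA factors, AP2-type regulators that maintain root stem cells and pluripotency, were all expressed. PLT3 (AT5G10510) had 301, 355 and 350.4 TPM and made up 53.3 ± 0.841% of the summed TPM of 6 PLETHORA genes (n = 3). It overlaps AT5G10520 by 454 bases on the opposite strand, a locus at 43.1 TPM. PLT1 (AT3G20840) had 96.3, 117 and 116 TPM, and BBM (AT5G17430), which promotes embryo formation when overexpressed, 58, 91.1 and 76 TPM. The lower ranges of PLT5 (AT5G57390), PLT2 (AT1G51190) and PLT7 (AT5G65510) overlapped, with means of 39, 36.2 and 35.2 TPM. Their relative ANT (AT4G37750), a growth regulator of organ primordia, had 35.2, 33.6 and 36.1 TPM.

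Among homeobox factors, WOX11 (AT3G03660), which acts in root founder cells, had 193, 171 and 196 TPM, at rank 809. WOX5 (AT3G11260), the marker of the root quiescent centre, had 26.7, 28 and 29.5 TPM, with a spread of 1.38 TPM around a mean of 28.1. The WOX5 relative WOX7 (AT5G05770) had 7.74, 4.29 and 6.26 TPM. WOX12 (AT5G17810), which is known to work beside WOX11, had 1.59, 0.63 and 1.01 TPM and was not expressed by the limit. The WOX11 libraries all lay above the highest WOX5 library.

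The LBD factors listed with the root primordium regulators, which act downstream of auxin in callus formation, all lay below WOX5 in every library. LBD18 (AT2G45420) had 16.2, 21.4 and 17.5 TPM and LBD16 (AT2G42430) 14.9, 21.5 and 16.4 TPM, ranges that overlap. LBD33 (AT5G06080) had 2.63, 7.45 and 2.89 TPM, LBD17 (AT2G42440) 1.44, 2.13 and 1.79 TPM, and LBD29 (AT3G58190) 0, 0.37 and 0.17 TPM, below the limit in every library. PUCHI (AT5G18560), an AP2-type factor of lateral root primordia, had 17.1, 15.6 and 17.8 TPM. GATA23 (AT5G26930), a marker of lateral root founder cells, had 0.93, 0.3 and 1.68 TPM. The founder cell marker was thus near the limit while PUCHI was above it in every library.

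SHR (AT4G37650), which moves between root cells to pattern the ground tissue, had 93.2, 78.2 and 113 TPM, and its partner SCR (AT3G54220) had 25.7, 35.3 and 36.3 TPM. Their zinc finger partners JKD (AT5G03150) and MGP (AT1G03840) had 12.1, 21.6 and 14.6 TPM and 2.08, 3.53 and 2.46 TPM. bZIP59 (AT2G31370), known to act with LBD proteins in callus, had 39.9, 48.3 and 50.4 TPM, and ALF4 (AT5G11030), needed for lateral roots and callus, 13.8, 17.5 and 17.3 TPM. AGL42 (AT5G62165), a MADS gene of the quiescent centre, had 1.01, 2.39 and 0.78 TPM.

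Factors of wounding and regeneration were expressed at 7 of 10 listed loci (70%), with a median of 74.4 TPM. That count is near the share of all protein-coding loci, 63.5%, and does not set the list apart. WIND1 (AT1G78080), an AP2-type factor that drives callus at wounds, had 202, 274 and 248 TPM. WIND3 (AT1G36060) had 156, 205 and 192 TPM. WIND2 (AT1G22190) had 80.9, 235 and 99.9 TPM, high in replicate 2, while WIND4 (AT5G65130) had 0.19, 0.19 and 0 TPM. RAP2.6L (AT5G13330) had 132, 107 and 117 TPM, ANAC071 (AT4G17980), a factor of tissue reunion, 89.6, 57.2 and 88 TPM, and ERF115 (AT5G07310), a factor of stem cell replacement, 73.6, 62 and 76 TPM. After rescaling, all 3 were lowest in replicate 2. ESR1 (AT1G12980), a promoter of shoot regeneration, had 1.52, 1.65 and 0.63 TPM, and its relative ESR2 (AT1G24590) was listed at 0, 0 and 0.16 TPM.

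Shoot and flower programmes were mostly low. Of 10 regulators of the shoot meristem and its boundaries, 5 were expressed and the median was 1.34 TPM. KNAT6 (AT1G23380) had 43.4, 53.6 and 52.5 TPM, and CUC2 (AT5G53950), a boundary factor, had 28.3, 23.7 and 27.8 TPM. KNAT1 (AT4G08150) had 12.7, 16.6 and 16.2 TPM. STM (AT1G62360), which maintains the shoot meristem, had 1.35, 2.01 and 2.01 TPM. WUS (AT2G17950), the organiser of the shoot stem cells, was listed at 0.14, 0 and 0 TPM, and the stem cell peptide gene CLV3 (AT2G27250) at 0 in every library. CUC1 (AT3G15170) had 1.26, 0.28 and 1.14 TPM and CUC3 (AT1G76420) 0, 0 and 0.11 TPM. The KNOX and CUC families were thus each led by a single listed member, whose libraries all lay above those of its listed relatives.

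Of 7 flower identity genes 1 was expressed, PI (AT5G20240), a petal and stamen factor, with 6.17, 6.83 and 6.37 TPM. LFY (AT5G61850), AP1 (AT1G69120), AP3 (AT3G54340) and SEP3 (AT1G24260) were at 0 in every library, and AG (AT4G18960) had 0, 0.22 and 0.1 TPM. The flowering signal gene FT (AT1G65480) had 1.33, 0.22 and 0.2 TPM. Of 11 embryo and seed genes none was expressed and 9 were absent. LEC1 (AT1G21970), LEC2 (AT1G28300), RKD1 (AT1G18790), RKD4 (AT5G53040) and the storage genes CRA1 (AT5G44120), CRU3 (AT4G28520), SESA1 (AT4G27140) and OLEO1 (AT4G25140) were at 0 in all 3 libraries. The seed regulators FUS3 (AT3G26790) and ABI3 (AT3G24650) had 0, 0.1 and 0.09 TPM and 0, 0.05 and 0.05 TPM.

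**Figure D2:**
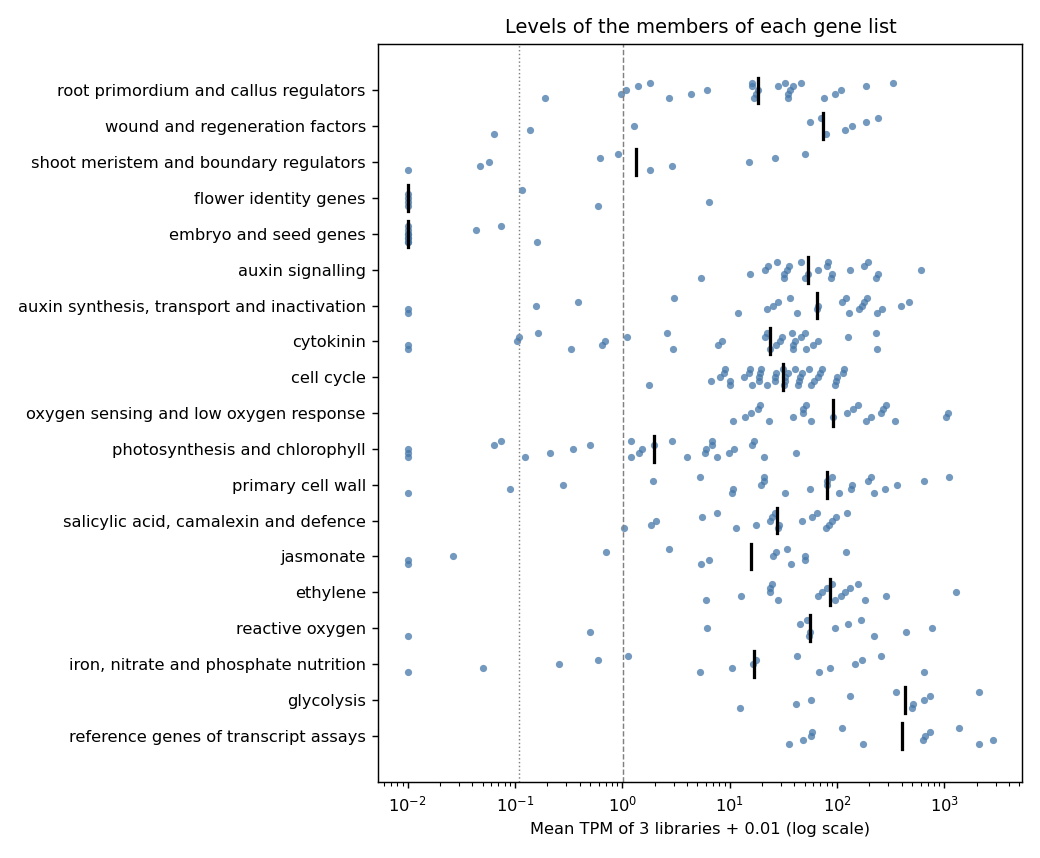
Mean TPM over the 3 libraries plus 0.01 (log scale) of each listed gene, by gene list, with the list median as a bar and the limits of 1 and 0.1 TPM as lines. Medians run from 0 for flower and embryo lists to 426 TPM for glycolysis.

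Auxin signalling was expressed at all 23 listed loci, with a median of 53.1 TPM. The receptor genes had means of 90.5 TPM for AFB1 (AT4G03190), 80.3 for TIR1 (AT3G62980), 46.1 for AFB5 (AT5G49980), 34 for AFB2 (AT3G26810) and 32.2 for AFB3 (AT1G12820). The Aux/IAA repressor IAA2 (AT3G23030) had 521, 579 and 702 TPM, above all other listed repressors in every library. IAA17 (AT1G04250) had 203, 239 and 248 TPM and IAA13 (AT2G33310) 181, 208 and 195 TPM. IAA14 (AT4G14550), the repressor whose stable form blocks lateral roots, had 4.25, 5.97 and 5.94 TPM, the lowest of the list. Among auxin response factors, ARF5 (AT1G19850) led with 201, 253 and 268 TPM. ARF19 (AT1G19220) had 32.6, 37 and 36.7 TPM and ARF7 (AT5G20730) 19.8, 24.2 and 24.6 TPM, both known to activate LBD genes. ARF7 overlaps AT5G20720 by 254 bases on the opposite strand, a locus at 317 TPM.

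Genes of auxin supply and removal were expressed at 20 of 24 listed loci. The GH3 enzymes join auxin to amino acids, and GH3.3 (AT2G23170) had 403, 640.0 and 355 TPM, GH3.6 (AT5G54510) 343, 386 and 442 TPM and GH3.5 (AT4G27260) 209.9, 302 and 270.1 TPM. GH3.1 (AT2G14960) had 26.5, 77.5 and 21.8 TPM, with replicate 2 standing apart. The efflux carrier genes PIN7 (AT1G23080), PIN3 (AT1G70940) and PIN4 (AT2G01420) had means of 179, 159.5 and 121 TPM, and the ranges of PIN7 and PIN3 overlapped while those of PIN3 and PIN4 did not. PIN2 (AT5G57090), known from root epidermis and cortex, had 25.9, 32.9 and 26.5 TPM. Of the influx carriers, LAX2 (AT2G21050) had 203, 230.4 and 273 TPM, AUX1 (AT2G38120) 121, 124 and 143 TPM and LAX3 (AT1G77690) 48.7, 66.3 and 78.8 TPM. In synthesis, YUC3 (AT1G04610) had 130.2, 176 and 205 TPM, YUC8 (AT4G28720) 58.6, 68.3 and 73.2 TPM and YUC9 (AT1G04180) 14.1, 30.3 and 22.6 TPM, while YUC1 (AT4G32540) and YUC2 (AT4G13260) were at 0. The aminotransferase genes TAA1 (AT1G70560) and TAR2 (AT4G24670) had 25.9, 41.8 and 40.9 TPM and 11, 12.5 and 12.2 TPM.

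Cytokinin genes were expressed at 22 of 31 listed loci (71.0%), near the 63.5% of all protein-coding loci. Among 3 receptors, AHK4 (AT2G01830) made up 61.0 ± 0.829% of their summed TPM (n = 3), with 41.4, 55.2 and 54.6 TPM. AHK3 (AT1G27320) had 21.3, 26 and 23.7 TPM and AHK2 (AT5G35750) 6.19, 8.39 and 10.6 TPM, and the receptor ranges did not overlap. Type-A response regulators dampen the cytokinin signal, and 8 of 10 were expressed. ARR4 (AT1G10470) had 219, 233 and 247 TPM, 39.8 ± 0.504% of their sum, and ARR3 (AT1G59940) had 109, 124 and 143 TPM. ARR5 (AT3G48100) had 42.6, 66.2 and 46.1 TPM and ARR7 (AT1G19050) 39.1, 41.8 and 39.8 TPM. ARR15 (AT1G74890) had 2.97, 1.31 and 3.44 TPM, and ARR16 (AT2G40670) and ARR17 (AT3G56380) were at 0 in all libraries. Of the activating type-B regulators, ARR1 (AT3G16857) had 50.3, 69.5 and 58.5 TPM, above ARR12 (AT2G25180) (27, 34 and 30.9 TPM) and ARR10 (AT4G31920) (20.6, 25.2 and 21.2 TPM) in every library.

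The cytokinin oxidases, which break the hormone down, were led by CKX3 (AT5G56970) with 259, 183 and 247 TPM, 67.8 ± 2.80% of the summed TPM of 7 genes (n = 3). CKX1 (AT2G41510) had 41.5, 25.4 and 48.4 TPM and CKX5 (AT1G75450) 34.4, 41.1 and 39.2 TPM, ranges that overlap. CKX2 (AT2G19500) had 0.1, 0 and 0.18 TPM. The synthesis genes IPT3 (AT3G63110), IPT5 (AT5G19040) and IPT7 (AT3G23630) had means of 0.32, 0.67 and 0.1 TPM, and no library of these reached 1 TPM. CKX3 and CKX1 were lowest in replicate 2, while CKX5 was highest there.

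Cell cycle genes were expressed at 39 of 40 listed loci, with a median of 31.4 TPM. CYCD3;1 (AT4G34160), a D cyclin that links cytokinin to the start of the cycle, had 104, 116 and 126 TPM, 48.1 ± 1.22% of the sum of the 3 D3 cyclins. KNOLLE (AT1G08560), a syntaxin of the forming cell plate, had 99.8, 115 and 123 TPM. CDKA;1 (AT3G48750), the central kinase, had 76, 104 and 113 TPM, and the mitotic kinase CDKB2;1 (AT1G76540) had 58, 70.4 and 72 TPM. The replication genes PCNA2 (AT2G29570), MCM7 (AT4G02060), MCM5 (AT2G07690) and MCM2 (AT1G44900) had means of 101, 46.8, 45.5 and 43.2 TPM. The mitotic cyclins CYCB1;2 (AT5G06150) and CYCB1;1 (AT4G37490) had 50.2, 65 and 66.3 TPM and 24.1, 29.1 and 26.5 TPM. These genes of the S phase, mitosis and cell plate thus all lay above 20 TPM in each library.

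Inhibitors of the cycle were present as well. Of the 7 KRP genes, KRP4 (AT2G32710) had 31.5, 46.9 and 42 TPM, 32.5 ± 2.22% of their sum. It overlaps AT2G32720 by 926 bases on the opposite strand, a locus at 37.3 TPM. KRP7 (AT1G49620) and KRP2 (AT3G50630) had 17.4, 21.8 and 27.2 TPM and 17.5, 18.4 and 21.9 TPM, ranges that overlap. KRP1 (AT2G23430) was the member under the limit, with 0.74, 2.66 and 1.89 TPM. SIM (AT5G04470), which promotes endoreduplication, had 15.7, 11.9 and 13.1 TPM, and its relative SMR1 (AT3G10525) 6.27, 12.6 and 5.46 TPM. RBR1 (AT3G12280), the retinoblastoma homologue, had 41.2, 48.7 and 44.1 TPM. The endocycle activators CCS52A1 (AT4G22910) and CCS52A2 (AT4G11920) had means of 8.98 and 10 TPM.

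**Figure D3:**
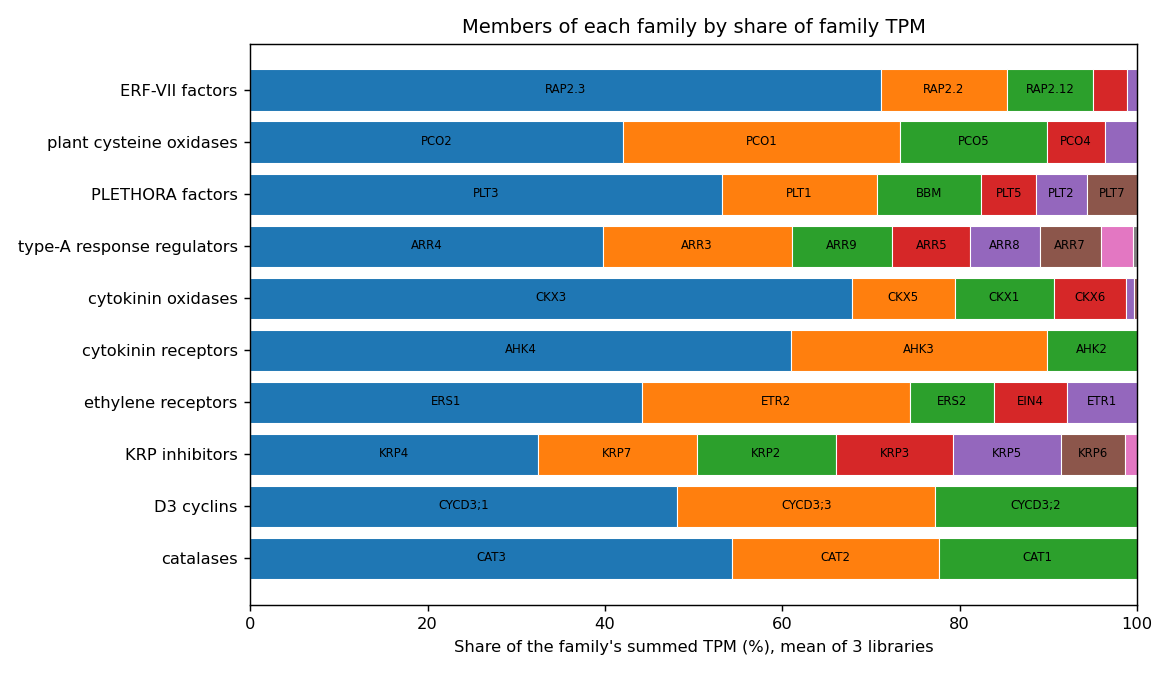
Share of each family's summed TPM held by each member (percent, mean of the 3 libraries), for 10 families. Segments run from the highest to the lowest member, and the smallest members are drawn without a name. RAP2.3 and CKX3 hold most of their families, while the KRP inhibitors are more even.

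Oxygen sensing and the response to low oxygen were expressed at all 23 listed loci, with a median of 91.7 TPM. ERF-VII factors are transcription factors that plant cysteine oxidases mark for degradation when oxygen is present. RAP2.3 (AT3G16770) had 958, 1034 and 1121 TPM, at rank 64, and held 71.1 ± 1.49% of the summed TPM of the 5 ERF-VII genes (n = 3). RAP2.2 (AT3G14230) had 173, 238 and 216 TPM, and RAP2.12 (AT1G53910) had 123, 140.0 and 161 TPM, a share of 9.64 ± 0.529%. HRE2 (AT2G47520) had 53.1, 62.5 and 54.4 TPM and HRE1 (AT1G72360) 16.3, 13.9 and 17.2 TPM, and the 5 ranges did not overlap. HRE1 overlaps by 124 bases the ribosomal protein gene AT1G72370 on the opposite strand, at 996 TPM. The oxidases PCO2 (AT5G39890) and PCO1 (AT5G15120), known to be induced by low oxygen, had 111, 127 and 132 TPM and 79.1, 107 and 88.6 TPM. PCO5 (AT3G58670), PCO4 (AT2G42670) and PCO3 (AT1G18490) had means of 48.6, 19.1 and 10.7 TPM.

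Transcripts known as low oxygen markers were abundant in wild-type callus. ADH1 (AT1G77120), alcohol dehydrogenase, had 961, 1205 and 1087 TPM, at rank 53. PGB1 (AT2G16060), a haemoglobin that scavenges nitric oxide, had 279, 364 and 389 TPM. Pyruvate decarboxylase genes PDC1 (AT4G33070) and PDC2 (AT5G54960) had 254, 305 and 305 TPM and 46.4, 54.7 and 53.2 TPM. LBD41 (AT3G02550) had 229, 288 and 288 TPM, and the sucrose synthases SUS1 (AT5G20830) and SUS4 (AT3G43190) 201, 295 and 278 TPM and 154, 189 and 214 TPM. HRA1 (AT3G10040), a repressor of RAP2.12, had 40.3, 52.4 and 52.9 TPM. Oxygen in the tissue was not measured, and no tissue at another oxygen level was in the series, so these levels have no reference. The enzymes of the degradation route PRT6 (AT5G02310), ATE1 (AT5G05700) and ATE2 (AT3G11240) had means of 23.3, 18.3 and 14 TPM.

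Photosynthesis genes were low. Of 27 listed, 16 were expressed (59.3%, near the 63.5% of all protein-coding loci) and 3 absent. The median was 1.94 TPM, and their sum was 176, 167 and 151 TPM. The small subunit genes of Rubisco, the carbon-fixing enzyme, were low. RBCS1A (AT1G67090) was expressed by the limit, at 2.71, 1.89 and 1.23 TPM, and RBCS1B (AT5G38430) and RBCS2B (AT5G38420) were at 0. These copies are alike in sequence, and so are the LHCB1 copies, so their split is uncertain. Of the antenna proteins, LHCA4 (AT3G47470) had 21.8, 20.6 and 20.3 TPM and LHCB1.3 (AT1G29930) 17, 23.5 and 10.1 TPM. LHCB1.3, LHCB3 (AT5G54270), LHCB6 (AT1G15820) and PORB (AT4G27440) overlap loci on the opposite strand at 53.2, 42.2, 49 and 1377 TPM. The greening factors GLK1 (AT2G20570) and GLK2 (AT5G44190) had 0.23, 0.11 and 0 TPM and 0.73, 1.24 and 1.6 TPM. HY5 (AT5G11260), a light signalling factor with roles beyond chloroplasts, was the highest of the list with 52.9, 28.8 and 42.1 TPM. After rescaling, 13 of the 16 expressed members were highest in replicate 1, where 28.3% of all expressed loci were.

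Wall genes of growing cells were expressed at 22 of 25 listed loci. EXPA4 (AT2G39700), an expansin that loosens walls, had 1069, 993 and 1230.4 TPM, at rank 52, and EXPA1 (AT1G69530) had 606, 644 and 676 TPM. EXPA5 (AT3G29030) had 0.12, 0.12 and 0 TPM and EXPA17 (AT4G01630) 0.65, 0.16 and 0 TPM. XTH4 (AT2G06850), which joins xyloglucan chains, had 350.3, 334 and 406 TPM, and the pectin methylesterase gene PME3 (AT3G14310) 206, 185 and 272 TPM. The cellulose synthase genes CESA1 (AT4G32410), CESA3 (AT5G05170) and CESA6 (AT5G64740) had 123, 138 and 148 TPM, 92.4, 108 and 115 TPM and 44.4, 66.8 and 55.6 TPM. CESA5 (AT5G09870) and CESA2 (AT4G39350), which can stand in for CESA6, had means of 19.4 and 10.5 TPM. KOR1 (AT5G49720), a glucanase of cellulose synthesis, had 177, 196 and 203 TPM.

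Ethylene genes were expressed at all 18 listed loci. ACO1 (AT2G19590), an enzyme of the last step of ethylene synthesis, had 261, 281 and 324 TPM. The receptor gene ERS1 (AT2G40940) had 108, 147 and 142 TPM, 44.2 ± 2.3% of the sum of 5 receptors (n = 3), and ETR2 (AT3G23150) 86, 84.3 and 98.8 TPM. ETR1 (AT1G66340) had 19.2, 26.7 and 25.4 TPM, a range that overlaps that of EIN4 (AT3G04580). The signalling genes EIN2 (AT5G03280) and EIN3 (AT3G20770) had 77.9, 102 and 108 TPM and 132, 177 and 164 TPM. The synthase gene ACS6 (AT4G11280) had 4.93, 61 and 5.28 TPM, with replicate 2 far above the others.

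In metabolism, the 10 glycolysis genes were all expressed, with a median of 426 TPM, from HXK2 (AT2G19860) at 12.4 TPM to GAPC2 at 2112 TPM. The nitrate reductase genes NIA2 (AT1G37130) and NIA1 (AT1G77760) had 543, 755 and 654 TPM and 215, 329.6 and 220.0 TPM, and nitrite reductase NIR1 (AT2G15620) 147, 194 and 177 TPM. The nitrate transporter gene NRT1.1 (AT1G12110) had 81.6, 83.9 and 91.2 TPM, while the high-affinity transporter NRT2.1 (AT1G08090) was at 0. The iron uptake genes IRT1 (AT4G19690) and FIT (AT2G28160) had 0, 0.74 and 0 TPM and 0.61, 0.37 and 0.77 TPM. Among enzymes that remove reactive oxygen, FSD1 (AT4G25100), an iron superoxide dismutase of plastids, had 649.5, 868 and 777 TPM, and APX1 (AT1G07890), ascorbate peroxidase, 347, 507 and 471 TPM. CAT3 (AT1G20620) held 54.3 ± 1.11% of the sum of 3 catalases (n = 3). The oxidase RBOHD (AT5G47910) had 28.1, 73 and 33.4 TPM, and RBOHC (AT5G51060), known from root hairs, 0.47, 0.84 and 0.17 TPM.

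Cell type markers differed between tissues. All 4 cambium markers were expressed: HB8 (AT4G32880) had 142, 146 and 176 TPM, the receptor kinase PXY (AT5G61480) 144, 109.5 and 159 TPM, WOX4 (AT1G46480) 66.2, 48.4 and 66.1 TPM and WOX14 (AT1G20700) 15.8, 18.6 and 14.6 TPM. After rescaling, 3 of the 4 were highest in replicate 1 and none in replicate 2, against 28.3% and 38.1% of all expressed loci. Of 9 phloem markers 8 were expressed, and the early regulators SMXL5 (AT5G57130) and OPS (AT3G09070) had 118, 121 and 124 TPM and 119, 101 and 123 TPM. The markers of mature phloem SUC2 (AT1G22710), APL (AT1G79430) and CALS7 (AT1G06490) had 5.62, 6.56 and 6.05 TPM, 4.29, 4.72 and 5.71 TPM and 2.42, 3.44 and 2.91 TPM. SMXL5 and OPS thus lay far above SUC2, APL and CALS7 in every library. This holds for the named markers only, since the listed NAC45 (AT3G03200) had a mean of 0.607 TPM, the lowest of the list.

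Of 15 xylem markers 11 were expressed (73.3%, against 63.5% of all protein-coding loci). The vessel proteases XCP1 (AT4G35350) and XCP2 (AT1G20850) had 80.6, 102 and 101 TPM and 53.4, 67.4 and 65.5 TPM. The secondary wall cellulose synthases CESA4 (AT5G44030), CESA7 (AT5G17420) and CESA8 (AT4G18780) had means of 17.4, 11 and 10.3 TPM. The vessel switch genes VND7 (AT1G71930) and VND6 (AT5G62380) had 5.85, 5.28 and 6.89 TPM and 2.74, 4.1 and 4.62 TPM, and VND6 overlaps the opposite-strand locus AT5G62390 at 393 TPM. The fibre switch genes SND1 (AT1G32770) and NST1 (AT2G46770) had 0.24, 0.24 and 0 TPM and 0, 0.61 and 0.11 TPM, under the limit in every library.

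All 4 root cap markers were expressed, with SMB (AT1G79580) at 70.7, 78.4 and 82.8 TPM, BRN1 (AT1G33280) at 41.8, 67.4 and 45.5 TPM and FEZ (AT1G26870) at 28.2, 40.2 and 32.8 TPM. Endodermis markers were mostly low: 3 of 8 were expressed, MYB36 (AT5G57620) with 9.91, 19.2 and 12 TPM, ESB1 (AT2G28670) with 13.9, 10.2 and 15.9 TPM and GPAT5 (AT3G11430) with 1.52, 2.65 and 1.54 TPM. The Casparian strip genes CASP1 (AT2G36100) and CASP2 (AT3G11550) had means of 0.14 and 0.06 TPM, and CASP5 (AT5G15290) was at 0. MYB36, their known activator, was therefore measured at levels that these targets did not reach. Root hair markers were expressed at 3 of 7 loci, with RHD6 (AT1G66470) at 5.07, 7.99 and 4.19 TPM and COBL9 (AT5G49270) at 0.21, 0.49 and 0.06 TPM. Shoot epidermis markers were expressed at 5 of 6, led by the lipid transfer gene LTP1 (AT2G38540) with 87, 226 and 70.9 TPM, while the identity factor ATML1 (AT4G21750) had 1.35, 1.24 and 1.84 TPM. Of 8 stomatal markers none was expressed, and SPCH (AT5G53210), FAMA (AT3G24140), EPF1 (AT2G20875), EPF2 (AT1G34245) and KAT1 (AT5G46240) were at 0 in all 3 libraries. Of 8 genes of trichome and hair patterning 5 were expressed (62.5%), near the 63.5% of all protein-coding loci. TTG1 (AT5G24520) had 30.8, 40.3 and 40.3 TPM and GL2 (AT1G79840) 0, 0.16 and 0 TPM.

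**Figure D4:**
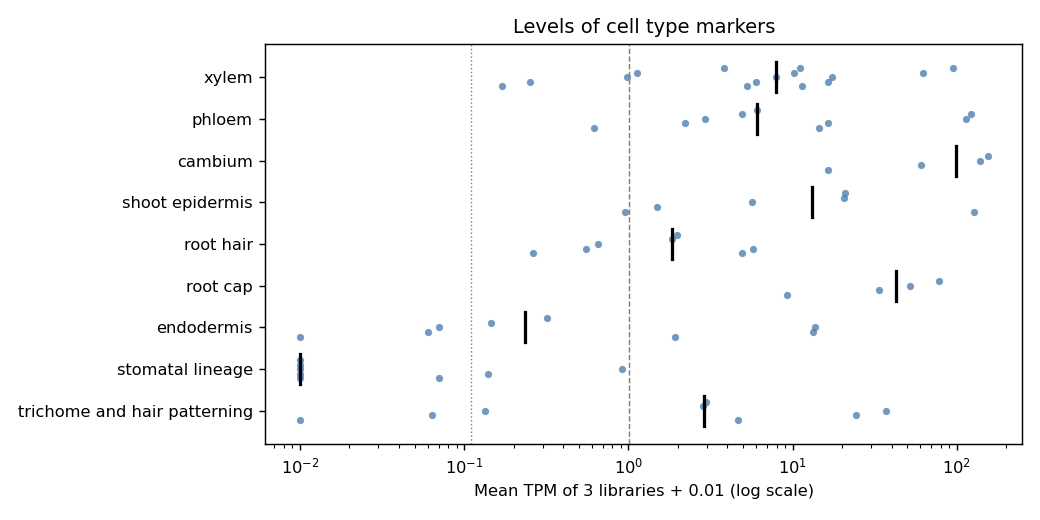
Mean TPM over the 3 libraries plus 0.01 (log scale) of cell type markers, with the median of each list as a bar and the limits of 1 and 0.1 TPM as lines. Cambium and root cap medians (99.0 and 42.6 TPM) stand above those of endodermis (0.223 TPM) and the stomatal lineage (0 TPM).

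Annotated protein-coding families were also counted by words in product descriptions, beside 63.5% expressed over all protein-coding loci. Such counts can take in other genes and miss members described otherwise. LEC1 is described as a histone superfamily protein. PMEPCRA (AT1G11580), described as methylesterase PCR A with 886, 1312 and 1225 TPM, is missed by the words pectin methylesterase. The defensin gene LCR69 (AT2G02100), described as low-molecular-weight cysteine-rich 69, is missed by the word defensin. It had 1024, 1015 and 1182 TPM, at rank 56. Tubulin genes were expressed at 28 of 30 loci, kinesin genes at 27 of 29 and pentatricopeptide genes, which process organelle RNA, at 229 of 262. Loci found by the word histone were expressed at 95 of 115 and held 1.1 ± 0.0180% of nuclear TPM (n = 3). Ubiquitin-related loci held 2.01 ± 0.0356%. In contrast, 4 of 113 loci found by the word defensin were expressed, 160 of 651 F-box loci and 97 of 248 cytochrome P450 loci. Of 121 loci found by the words pectin methylesterase, 31 were expressed. The highest WRKY factor was WRKY23 (AT2G47260) with 256, 223 and 255 TPM, and the highest locus found by the word homeobox was HB6 (AT2G22430) with 351, 339 and 373 TPM.

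Protein-coding loci also differed in structure by level. The median coding length was 606 bases in the 100 highest, 1176 bases in all expressed loci and 674 bases in absent loci. A single exon was annotated in 8% of the 100 highest, 13.8% of expressed and 32.7% of absent loci.

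The 12 common reference genes of transcript assays differed in how steady they were. PP2AA3 (AT1G13320) had 50.9, 60.3 and 62.2 TPM, a coefficient of variation of 10.5%, or 1.71% after rescaling, the lowest of the list. TIP41L (AT4G34270) had 42.8, 51.3 and 49.5 TPM, 9.42% and 1.88%, and ACT7 (AT5G09810) 552, 649 and 681 TPM, 10.7% and 2.59%. The highest coefficient after rescaling was that of UBC21 (AT5G25760), 9.54%, with 51.1, 55.9 and 67.5 TPM. Over all expressed loci the median coefficient was 13.9%, or 9.45% after rescaling. It was 5.55% after rescaling for loci of at least 100 TPM, and 5 of the 8 reference genes at that level lay above it, namely ACT8, GAPC2, EIF4A1, UBQ10 and GAPC1 at 5.90%, 6.03%, 7.61%, 8.13% and 8.24%. For loci of 10 to under 100 TPM it was 7.97%, and 1 of the 4 reference genes there lay above it. The steadiest deposited values among loci of at least 100 TPM were those of SIP3 (AT4G30960), a protein kinase gene, with 322, 329 and 329 TPM. Such loci were steady as listed and therefore higher in replicate 1 after rescaling.

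Replicate 2 stood apart in genes of jasmonate and defence, though not in these alone. Among 15283 expressed loci with a mean of at least 5 TPM, 405 were at least 2 times both other libraries in replicate 2 after rescaling, 2.65% of these loci. In replicate 1 the count was 9 and in replicate 3 it was 5. Fewer lay at least 2 times below both others, 20, 21 and 50 in replicates 1 to 3. This threshold was chosen with the data in view, and no test was made of a difference between single libraries.

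The 10 loci with the largest ratio of highest to lowest library, among expressed loci with a mean of at least 20 TPM, were highest in replicate 2 in 9 cases. SZF1 (AT3G55980), a zinc finger regulator of stress responses, had 8.3, 158 and 9.83 TPM. WRKY40 (AT1G80840), a defence regulator, had 4.63, 84.3 and 4.68 TPM, and MYB15 (AT3G23250) 5.67, 91.7 and 6.76 TPM. STZ (AT1G27730), a zinc finger repressor, had 5.12, 72.6 and 4.77 TPM, and CAF1a (AT3G44260), an RNA deadenylase, 5.21, 77.5 and 5.78 TPM. The remaining ones were AT4G27652, AT1G07135, AT1G18740 and MYC2. The exception, AT2G07675, annotated as a ribosomal protein S12/S23 gene on chromosome 2, had 181, 4.68 and 2.18 TPM, high in the library that was also high in organelle transcripts.

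Of 14 jasmonate genes 7 were expressed, and 6 of these were highest in replicate 2 after rescaling, where 38.1% of all expressed loci were. JAZ1 (AT1G19180), a repressor induced by jasmonate, had 30.6, 301 and 28.4 TPM. MYC2 (AT1G32640), the main jasmonate factor, had 8.64, 131 and 11.1 TPM, and JAZ10 (AT5G13220) 8.75, 56.1 and 11.4 TPM. MYC2 overlaps AT1G32630 by 3241 bases on the opposite strand, a locus with a mean of 8.58 TPM. The synthesis genes AOS (AT5G42650) and OPR3 (AT2G06050) had 19.9, 58.7 and 24.2 TPM and 33, 70.7 and 46.4 TPM. LOX2 (AT3G45140) had 0, 0.05 and 0 TPM, and AOC1 (AT3G25760) and PDF1.2 (AT5G44420) were at 0. The receptor gene COI1 (AT2G39940) had 23.5, 27.8 and 29.7 TPM, close in all libraries. Without replicate 2, JAZ1 would stand at rank 6581 instead of 1410 (908 without replicate 3), while the same number of listed genes, 7, would be called expressed.

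Of 20 genes of salicylic acid and defence 17 were expressed, and all 17 were highest in replicate 2 after rescaling. By this measure, 9 of 11 expressed genes of iron, nitrate and phosphate nutrition were also highest there. So were 7 of 11 expressed genes of reactive oxygen, against 38.1% of all expressed loci. WRKY33 (AT2G38470) had 22.4, 126 and 25.3 TPM and WRKY70 (AT3G56400) 79.2, 217 and 73.9 TPM. ICS1 (AT1G74710), the isochorismate synthase, had 51.2, 92.6 and 49.8 TPM, its export partner EDS5 (AT4G39030) 60.2, 139 and 51.8 TPM and the conjugating enzyme PBS3 (AT5G13320) 67.7, 139 and 60.8 TPM. The immune regulators EDS1 (AT3G48090) and PAD4 (AT3G52430) had 75, 140.2 and 78.8 TPM and 58, 122 and 57.5 TPM. Outputs were lower, with PR1 (AT2G14610) at 3.1, 19.8 and 0 TPM and PR2 (AT3G57260) at 7.18, 20.2 and 6.9 TPM. ICS1, EDS5 and PBS3 thus lay well above 1 TPM in replicates 1 and 3 too, while PR1 ranged from 0 to 19.8 TPM. The camalexin enzyme gene CYP71A12 and the pipecolic acid enzyme gene ALD1 lay near that limit, as given above. Without replicate 2 the count of expressed genes was again 17.

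Of the 22 expressed wall genes, 9 were highest in replicate 2 after rescaling (40.9%), near the 38.1% of all expressed loci. Of the 21 with a mean of at least 5 TPM, 4 were at least 2 times both others there, against 2.65% of all such loci. XTH22 (AT5G57560), known as a touch-induced gene, had 7.07, 83.7 and 6.72 TPM, and XTH18 (AT4G30280) 2.04, 27.6 and 2.47 TPM. The extensin gene EXT3 (AT1G21310) had 196, 453 and 191 TPM. After rescaling, none of the 18 root primordium regulators with a mean of at least 5 TPM was at least 2 times both others in replicate 2, and neither was any of the 39 such cell cycle genes or the 23 genes of oxygen sensing. With 2.65% of all loci past this limit, counts of 0 in lists of this size lie near the share of all loci and do not set them apart. LBD33, whose mean is under 5 TPM, was past it. How the explants were handled before extraction is not given in the sources used here, and its part in these values was not tested.

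**Figure D5:**
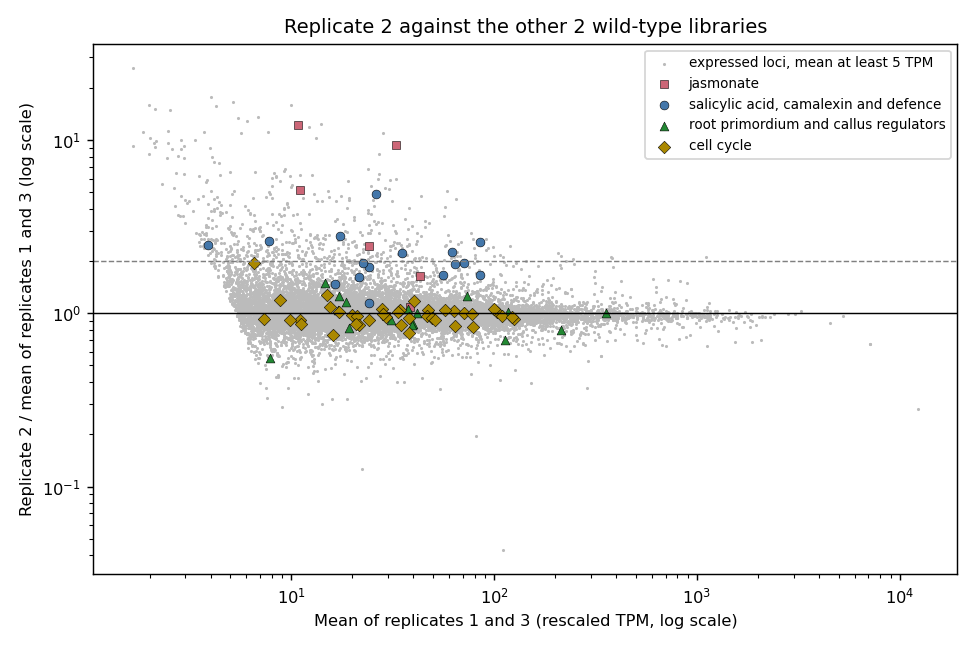
Rescaled TPM of replicate 2 over the mean of replicates 1 and 3 (log scale) against that mean (log scale), for expressed loci with a mean of at least 5 TPM in grey and 4 gene lists in colour. MYC2 and JAZ1 are the highest coloured points, at 12.3 and 9.31, while cell cycle genes and most root primordium regulators lie near 1.

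Promoters of the replicate 2 loci were searched for motifs known from stress genes. TTGACT, a W box that WRKY factors bind, was in 32.5% of the 403 protein-coding promoters of this set, against 19.1% of all 27323. The form TTGACC was in 17.9% and 12.2%, CGCGTT, the core of a rapid stress response element, in 6.70% and 2.58%, and CACGTG, the G box, in 8.19% and 6.49%. In the 66 loci that were at least 5 times both others, these shares were 37.9%, 24.2%, 13.6% and 15.2%. The promoter of SZF1, a gene at least 5 times both other libraries in replicate 2, is shown as the gene's strand with motif matches in capitals. Its window, at chr3:20775970-20776219 on the plus strand, holds 1 TTGACT and 2 TTGACC matches.
SZF1: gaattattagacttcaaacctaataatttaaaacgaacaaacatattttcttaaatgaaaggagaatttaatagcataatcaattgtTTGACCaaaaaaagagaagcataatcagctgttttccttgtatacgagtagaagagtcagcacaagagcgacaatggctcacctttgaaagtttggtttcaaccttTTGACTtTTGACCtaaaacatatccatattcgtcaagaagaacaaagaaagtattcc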

How the data were processed

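Callus RNA was sequenced from TruSeq libraries, as the labels' protocols record. The authors deposited 1 table that gives TPM at 31305 loci in 6 libraries. Named without roles, per the submitters' processing notes, are RSEM 1.3.1, STAR 2.7.10a and the build TAIR10. Further steps and the strand setting are not given in the sources used here. TPM divides by length and library total, so very abundant transcripts lower all others, and depth cannot be recovered.

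Column names matched the sample titles, and the 3 Col-0 columns were used. All 31217 nuclear loci matched the TAIR10.1 annotation (RefSeq), the source of positions, products and sequences. Of 426 listed loci, 409 had the listed symbol or a synonym there. Levels, ranks, shares and standard deviations were computed with Python 3.11.15, pandas 2.3.3 and numpy 2.4.6. No test was run, since there is 1 group.

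Members and lists were chosen with earlier results of these data known. Named genes are the 30 highest loci, list members, the highest locus of a word family, and the 10 most variable and 5 steadiest loci by fixed limits. AT1G52300, AT1G25098, PMEPCRA, LCR69 and the loci named for overlaps were chosen after their values were seen. A few list members and 1 promoter are not reported here. The motifs, the 10 families with shares and the threshold for replicate 2 were chosen after the data were seen.

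Alternatives were other limits, leaving out each library, rescaling to a nuclear sum of 1000000, median-of-ratios scaling, protein-coding loci only, ranks by median and a pseudocount of 0.1.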

Additional observations from a re-analysis of the deposited data

How the results depend on the processing

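No paired analysis was possible because a single group was described and no test was run. Leaving out each library, rescaling and median-of-ratios scaling kept the counts of expressed and absent loci and of expressed list members within 1.5 times. With protein-coding loci only, 6044 were absent, or 5998 after rescaling to their own sum, and in both settings the 10 highest held 3.06% and the 100 highest 14.4% of TPM, since the ribosomal RNA loci were removed by construction. Taking 5 TPM as the limit left 3 shoot meristem, 5 phloem, 3 shoot epidermis, 0 root hair and 2 trichome and hair patterning genes expressed. Taking 0.5 TPM gave 1 stomatal gene. The lowest Pearson r between libraries was 0.979 with a pseudocount of 0.1 and 0.967 over expressed loci, and 0.985 to 0.992 on leaving out a library. With at least 3 times in place of 2, replicate 2 stood above both others at 163 loci. This threshold, the other scalings of that count and the rescaling to protein-coding loci were chosen after seeing the data. Depth is unknown, so no counting error can be given for levels near the limits.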
